A study of Mus musculus with 94 samples.

Results

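Heterotrimeric G proteins are switches that relay signals from receptors that span the cell membrane. An alpha subunit binds GDP or GTP, and a beta subunit forms a tight dimer with a gamma subunit. When a receptor is activated, the alpha subunit takes up GTP and separates from the beta-gamma dimer, and both parts act on enzymes, channels and exchange factors inside the cell. In blood stem cells such receptors, Cxcr4 among them, are known for their part in homing to the bone marrow and in retention there. The 10 genes described here encode beta subunits (Gnb1, Gnb2, Gnb4), alpha subunits (Gnai2, Gnai3, Gnas, Gna13, Gnaq) and gamma subunits (Gng5, Gng12). They are 10 of 13244 genes in an expression table of single mouse stem cells, and were taken by name, as a list proposed with the measured difference of Gnb1 in view. Their mean levels, their shares of cells with a transcript and their correlations with Gnb1 are the values that chose and defined the set, so all are given as descriptions, with no test.

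The cells were sorted from C57BL/6 mice and labelled Ski-KO (46 cells) or Ski-WT (48 cells). Ski encodes a co-repressor that acts on Smad proteins, and the removed part of the gene is not given. Both genotypes were stem cells derived from fetal liver that had been transplanted for 6 months before the marrow of the hind limbs was taken, enriched on CD117 beads and sorted as cells that lack lineage markers and Cd48 and carry Cd45.2, Sca-1, Cd150 and c-Kit. Each cell was captured on a Fluidigm C1 chip, its cDNA was made with SMARTer chemistry, and a value for each gene was deposited as log2(TPM + 1), where TPM is a level per transcript length, scaled to a common total in each cell. A 6-digit prefix in the labels is 051716 for 27 of the Ski-KO cells, 051816 for the other 19, and 061016 for every Ski-WT cell. Its meaning is not given, and since no prefix holds both genotypes, prefix and genotype cannot be told apart. No animal, donor or culture is named, so a genotype counts as 1 sample here and its cells are not replicates.

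Across the table, cells had between 2326 and 5214 genes above 0, with medians of 3248 in prefix 051716, 3679 in prefix 051816 and 3670.5 in Ski-WT. TPM keeps no sequencing depth, so the depth of each cell is unknown and a value of 0 or under 5 TPM cannot be told from a transcript missed in that cell. Ski mRNA reached 5 TPM in 2 cells of 051716, 1 of 051816 and 6 of Ski-WT, too few to check the genotype labels. Of 10 stem cell markers, 9 had a value above 0 in 25% or more of the cells of either genotype, as did 6240 of all 13244 genes. So did 2 of 8 myeloid, 3 of 6 megakaryocyte and 2 of 5 lymphoid markers that were rows of the table. Of the 9 stem cell markers, 6 had a lower mean log2 level in both Ski-KO prefixes and 0 a higher one, beside 44.3% and 18.5% of the 6240 genes. Their median difference, Ski-KO minus Ski-WT, was -0.72, against -0.22 over the 6240 genes. Of 8 erythroid markers that were rows of the table, 2 passed the same filter and 2 were at 0 in all cells. Of the 2 that passed, 1 was lower and 1 higher in both Ski-KO prefixes. Car2, listed here as an erythroid marker, was at 5 TPM or more in every cell of the table. No mast cell or basophil marker passed the filter. The summed level of the 8 myeloid markers ranged from 0 to 3653.6 TPM in prefix 051716, from 0 to 2734.55 in 051816 and from 0 to 2687.1 in Ski-WT, and its part in the results below was not tested.

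The beta subunits are close copies of each other, so the bases that a read could share between them bear on how their levels can be separated. In the GENCODE annotation of mouse build GRCm38, which is not the mm9 build named for these files, the coding sequences of Gnb1 and Gnb4 are both 1020 bases long and are identical at 77.0% of positions. The longest run of bases that they share covers 27 bases in exon 10 of each gene, from coding base 757 to 783. It is shown first below, and the stretch printed, with the coding bases around the run, lies at chr4:155555057-155555113 on the plus strand for Gnb1 and at chr3:32587679-32587735 on the minus strand for Gnb4. The longest run shared by Gnb1 and Gnb2 covers the last 19 coding bases, in exon 11 of Gnb1 and exon 10 of Gnb2. The stretches printed, which add the coding bases before the run, lie at chr4:155557241-155557274 on the plus strand and at chr5:137528506-137528539 on the minus strand. Capitals mark the shared run in each pair, and all sequences read 5′ to 3′ along the gene.
Gnb1 (pair with Gnb4): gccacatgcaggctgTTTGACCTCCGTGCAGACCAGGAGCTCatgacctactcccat
Gnb4 (pair with Gnb1): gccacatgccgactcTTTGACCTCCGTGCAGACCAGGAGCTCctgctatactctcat
Gnb1 (pair with Gnb2): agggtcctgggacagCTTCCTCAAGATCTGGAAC
Gnb2 (pair with Gnb1): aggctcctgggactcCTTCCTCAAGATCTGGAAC
No stretch of 31 coding bases was thus common to Gnb1 and another beta subunit gene of this set. Of the 990 stretches of 31 coding bases in Gnb1, 13 (1.31%) occur in another annotated gene, and those are the pseudogenes Gnb1-ps2 and Gnb1-ps3, neither of which is a row of the table. Gng5 stood apart in this respect. Of its 174 stretches, 123 (70.7%) occur in 7 other annotated genes, none of them a row of the table, and its level is therefore uncertain. For the other 8 members the share was between 0% and 1.72%, the highest for Gnaq, which shares 18 stretches with Gna11 and Gna14.

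Gnb1 encodes a beta subunit of the Gi, Gs and Gq proteins alike. Among the members it had the largest difference of mean log2 level between the genotypes, the contrast on which it was chosen. In Ski-WT its log2(TPM + 1) level was 7.26 in the lowest cell, 10.64 in the median cell and 11.69 in the highest. In the Ski-KO prefix 051716 the lowest, median and highest cells were at 0, 8.0 and 9.82, and in 051816 at 0.58, 6.70 and 11.15. The Ski-WT cells lay in a narrow band, while the Ski-KO cells fell into a lower group near 0 and an upper group that overlapped the foot of the Ski-WT band. The mean log2 level was 5.65 ± 3.85 (SD, n = 27 cells) in 051716, 5.73 ± 3.60 (n = 19) in 051816 and 10.44 ± 0.88 (n = 48) in Ski-WT. The difference from Ski-WT was -4.78 in 051716 and -4.71 in 051816, and -4.75 over all Ski-KO cells. Among the 6240 genes that passed a filter (a value above 0 in 25% or more of the Ski-KO or of the Ski-WT cells), this was the lowest difference. On the scale of mean TPM the contrast was smaller, with 289 TPM in 051716, 321 in 051816 and 1599 in Ski-WT, a ratio of 5.29 between Ski-WT and Ski-KO. With the log2 ratio of mean TPM in place of the mean of log2 values, Gnb1 was 201st from the lowest, and with medians over cells above 0 it was 425th.

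**Figure D1:**
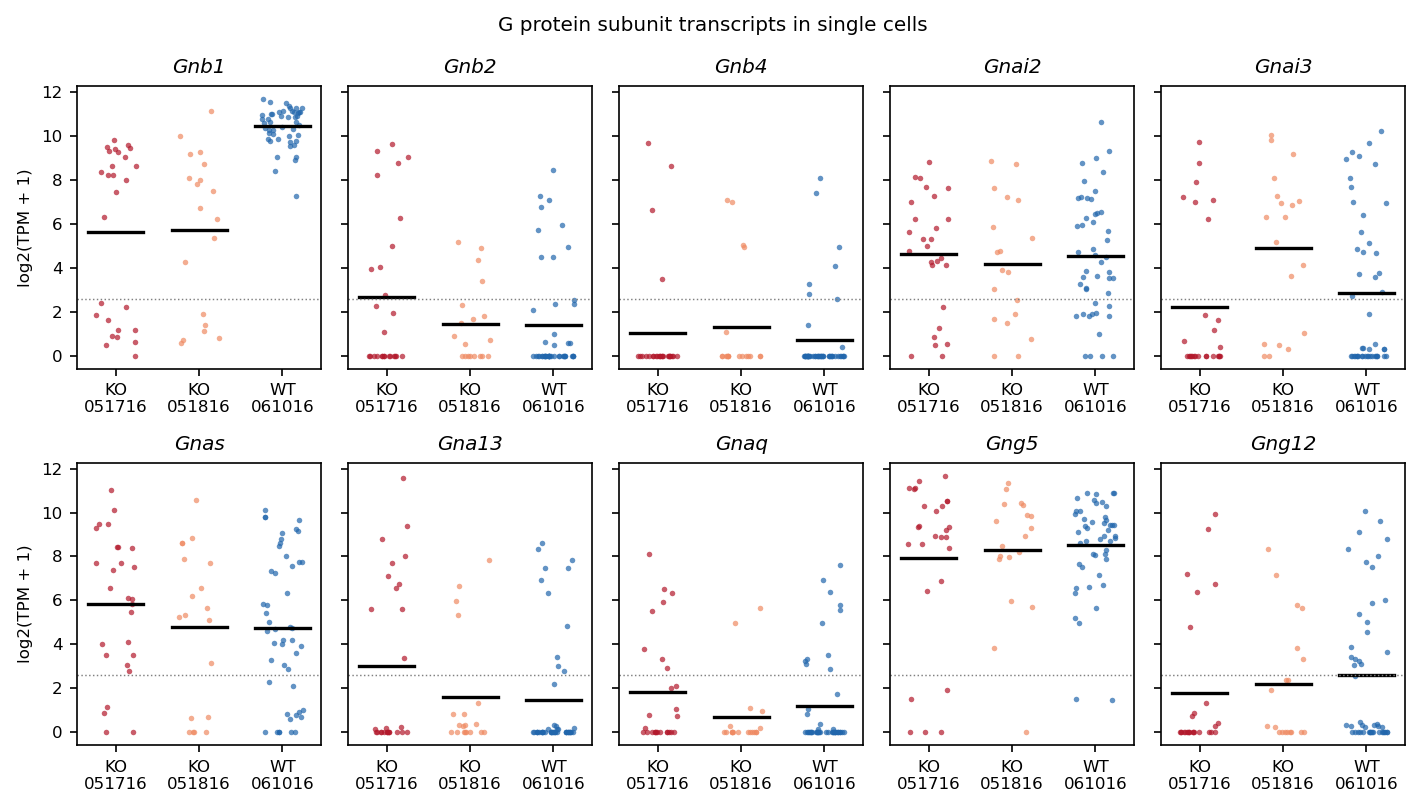
Each point is 1 cell, with its log2(TPM + 1) level on the vertical axis, by label prefix, for the 10 subunit genes; black bars are means and the dotted line marks 5 TPM. All 48 Ski-WT cells lie at 7.26 or above for Gnb1, and 24 of the 46 Ski-KO cells reach that level. The other members also overlap between all prefixes.

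Gnb1 reached 5 TPM in 16 of 27 cells of prefix 051716 (59.3%, exact 95% binomial interval 38.8% to 77.6%), in 13 of 19 cells of 051816 (68.4%, 43.4% to 87.4%) and in all 48 Ski-WT cells (interval 92.6% to 100%). These intervals, and those below, are Clopper-Pearson intervals and cover counting error only. Of the 46 Ski-KO cells, 1 was at 0, 16 were above 0 and under 5 TPM, and 29 were at 5 TPM or more. Within the 29 cells with Gnb1 at 5 TPM or more, the median level was 395 TPM, against 1600 TPM over the Ski-WT cells. Of the 46, 24 reached the level of the lowest Ski-WT cell (152 TPM) and 1 reached the Ski-WT median. The Ski-KO cells thus had both fewer cells with Gnb1 at 5 TPM and a lower level in those that had it.

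To set the detection of Gnb1 beside other genes found as often in Ski-WT, all genes at 5 TPM or more in each of the 48 Ski-WT cells were taken. There were 148 such genes, Gnb1 among them, and Gnb1 was 79th of them by mean TPM in Ski-WT. The 147 others were at 5 TPM or more in at least 40 of the 46 Ski-KO cells each, and 113 of them in all 46. Mpv17, the next lowest, was detected in 40 Ski-KO cells (24 of 051716 and 16 of 051816). Gnb1 was detected in 29. The lowest difference among the 147 others was -1.23, for Oaz1-ps. These values come from the contrast that led to the choice of Gnb1 and are a description of its size. The genes were taken through Ski-WT alone, so their share of cells could stay or fall in Ski-KO but could not rise. No set was taken through Ski-KO.

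**Figure D2:**
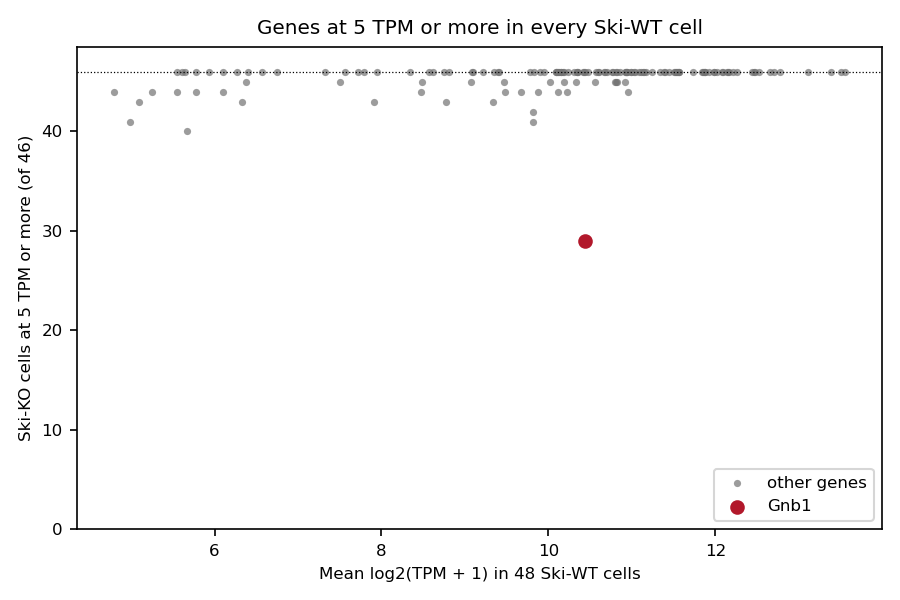
Each point is 1 of the 148 genes at 5 TPM or more in every Ski-WT cell, with its mean log2(TPM + 1) in Ski-WT on the horizontal axis and the number of Ski-KO cells at 5 TPM or more, of 46 (dotted line), on the vertical axis. Gnb1 lies at 29 cells and the 147 other genes lie at 40 to 46.

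The other beta subunits were found in few cells. Gnb2, a widely expressed beta subunit, ranged from 0 to 9.64 in prefix 051716 (median cell 0), from 0 to 5.17 in 051816 (median 0.70) and from 0 to 8.45 in Ski-WT (median 0) on the log2(TPM + 1) scale. It reached 5 TPM in 10, 4 and 9 cells in the same order, and its mean log2 level of 2.68 in 051716 stood above 1.43 in 051816 and 1.41 in Ski-WT. The differences from Ski-WT were 1.27 and 0.02, so the higher mean was a property of 1 Ski-KO prefix. Gnb4, a further beta subunit, had a median cell at 0 in each prefix and a highest cell of 9.70, 7.07 and 8.07. It was at 5 TPM or more in 4, 4 and 6 cells, with differences of 0.33 and 0.60, and it is the 1 member that did not pass the filter of 25% of cells.

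Summed over the beta subunit genes in the table, the median cell held 398 TPM in 051716, 107 TPM in 051816 and 1641 TPM in Ski-WT. Without Gnb1 the sum was 2.84, 5.09 and 0.435 TPM, so that Gnb1 made up nearly all beta subunit mRNA in the median cell of each prefix (99.6%, 97.9% and 99.97%). The lowest Ski-WT cell still had 86.4% of its beta subunit TPM from Gnb1, whereas shares down to 0% in 051716 and 2.03% in 051816 occurred among the Ski-KO cells. Beta subunit genes other than Gnb1 reached 5 TPM in 21 Ski-KO cells (12 of 051716, 9 of 051816) and in 17 Ski-WT cells. In 8 Ski-KO cells (5 of 051716 and 3 of 051816) and in 0 Ski-WT cells no beta subunit gene reached 5 TPM. The 0 for Ski-WT follows from Gnb1, chosen on the genotype contrast and at 5 TPM or more in all 48 of those cells. With Gnb1 left out, cells with no beta subunit at that level numbered 25 of 46 for Ski-KO and 31 of 48 for Ski-WT. A count of 0 at this level does not show that a cell lacked the transcript.

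Among the alpha subunits, Gnai2, an alpha subunit of the Gi class that inhibits adenylyl cyclase and is abundant in blood cells, had overlapping values in all prefixes. Its lowest, median and highest cells were at 0, 4.98 and 8.81 in 051716, at 0, 3.91 and 8.84 in 051816, and at 0, 4.37 and 10.65 in Ski-WT on the log2(TPM + 1) scale. Detection at 5 TPM was found in 74.1% (interval 53.7% to 88.9%), 63.2% (38.4% to 83.7%) and 72.9% (58.2% to 84.7%) of cells, and the differences from Ski-WT were 0.09 and -0.39.

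Gnai3, a second alpha subunit of the Gi class, set the Ski-KO prefixes apart from each other. Its lowest, median and highest cells were at 0, 0 and 9.73 in 051716, at 0, 6.29 and 10.05 in 051816, and at 0, 0.36 and 10.21 in Ski-WT. Cells with Gnai3 at 5 TPM or more numbered 7 of 27 (25.9%, 11.1% to 46.3%), 13 of 19 (68.4%, 43.4% to 87.4%) and 21 of 48 (43.8%, 29.5% to 58.8%). Ski-WT lay between the Ski-KO prefixes, with differences of -0.66 for 051716 and 2.03 for 051816.

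Gnas encodes the alpha subunit of Gs, which stimulates adenylyl cyclase, and was the alpha subunit with the highest mean level in each genotype. The lowest, median and highest cells were at 0, 6.11 and 11.02 in 051716, at 0, 5.35 and 10.55 in 051816, and at 0, 4.64 and 10.10 in Ski-WT. It was found at 5 TPM or more in 23, 13 and 34 cells (85.2%, 68.4% and 70.8%), and the differences were 1.10 and 0.03. Gnas lies in an imprinted cluster, and its antisense neighbour Nespas was at 0 in all cells.

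Gna13, an alpha subunit that acts on exchange factors of small GTPases, had its lowest, median and highest cells at 0, 0.15 and 11.58 in 051716, at 0, 0.31 and 7.83 in 051816, and at 0, 0 and 8.61 in Ski-WT. At 5 TPM or more it was found in 11, 4 and 11 cells, and the differences from Ski-WT were 1.54 and 0.11. In 051716 a single cell held 60.1% of all Gna13 TPM. Gm11696, annotated antisense to Gna13, reached 5 TPM in 1 Ski-KO cell and 0 Ski-WT cells. Gnaq, the alpha subunit of Gq, which activates phospholipase C beta, ranged from 0 to 8.13 (median 0.20), from 0 to 5.66 (median 0) and from 0 to 7.62 (median 0). It was at 5 TPM or more in 8, 2 and 11 cells, with differences of 0.63 and -0.50. Gnb2, Gnas and Gna13 therefore shared a pattern in which 051716 was higher by more than 1 and 051816 lay near Ski-WT.

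The sum over all alpha subunit genes in the table was 323, 356 and 353 TPM in the median cell of 051716, 051816 and Ski-WT. At least 1 alpha subunit gene reached 5 TPM in all 46 Ski-KO cells and in 46 of 48 Ski-WT cells. The median summed level of alpha subunits was thus close in the 3 prefixes, while the mean sums were 727, 556 and 543 TPM. The lower median beta sum in Ski-KO restates the difference of Gnb1, the gene chosen on it. Without Gnb1 the median beta sums were 2.84, 5.09 and 0.435 TPM.

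Of the gamma subunits, Gng5, a small widely expressed subunit, was the second highest member in Ski-WT and the highest in Ski-KO. Its lowest, median and highest cells were at 0, 9.20 and 11.66 in 051716, at 0, 8.92 and 11.36 in 051816, and at 1.46, 9.03 and 10.90 in Ski-WT on the log2(TPM + 1) scale. Gng5 was at 5 TPM or more in 81.5% (61.9% to 93.7%), 94.7% (74.0% to 99.9%) and 95.8% (85.7% to 99.5%) of cells. The differences were -0.58 and -0.25, and the mean TPM went the other way, with 904, 739 and 663 TPM. Direction for Gng5 therefore depends on the scale, and its pseudogene copies add to the uncertainty of its level.

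Gng12, another gamma subunit, had its lowest, median and highest cells at 0, 0 and 9.94 in 051716, at 0, 0.29 and 8.35 in 051816, and at 0, 0.33 and 10.06 in Ski-WT. It was at 5 TPM or more in 6 of 27 (22.2%, 8.62% to 42.3%), 6 of 19 (31.6%, 12.6% to 56.6%) and 20 of 48 cells (41.7%, 27.6% to 56.8%). The differences were -0.83 and -0.43, lower in both Ski-KO prefixes and short of a difference of 1. Summed gamma subunit TPM in the median cell was 1002, 943 and 817. The ratio of summed beta to summed gamma TPM in the median cell was 0.272 in 051716, 0.237 in 051816 and 1.62 in Ski-WT. Since Gnb1 made up nearly all of the beta sum in the median cell, this ratio largely restates its difference.

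Whether any other subunit was lower or higher together with Gnb1 was read against all genes. A gene was counted as past the limit when the difference from Ski-WT was at least 1 on the log2 scale, with the same sign, in each Ski-KO prefix. By that count 347 of 6240 genes (5.56%) were lower and 36 (0.577%) were higher. Gnb1 was lower by this count, but it was chosen on that contrast and nothing is read from it. Of the 9 other members, 0 were lower and 0 were higher, which at these background shares sets them apart from other genes in neither direction. Without the size limit, Gng5 and Gng12 were lower in both Ski-KO prefixes, Gnb2, Gnb4, Gnas and Gna13 were higher in both, and Gnai2, Gnai3 and Gnaq had opposite signs. The median difference of the 9, Gnb4 included, was 0.44, against -0.22 over the 6240 genes, of which 44.3% were lower in both prefixes and 18.5% higher in both. The median size of the gap between the Ski-KO prefixes was 0.55 over all genes, and for Gnb2, Gnai3, Gnas, Gna13 and Gnaq the gap was over 1. From 051716 alone Gnb2, Gnas and Gna13 would pass as higher, and from 051816 alone Gnai3 would.

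**Figure D3:**
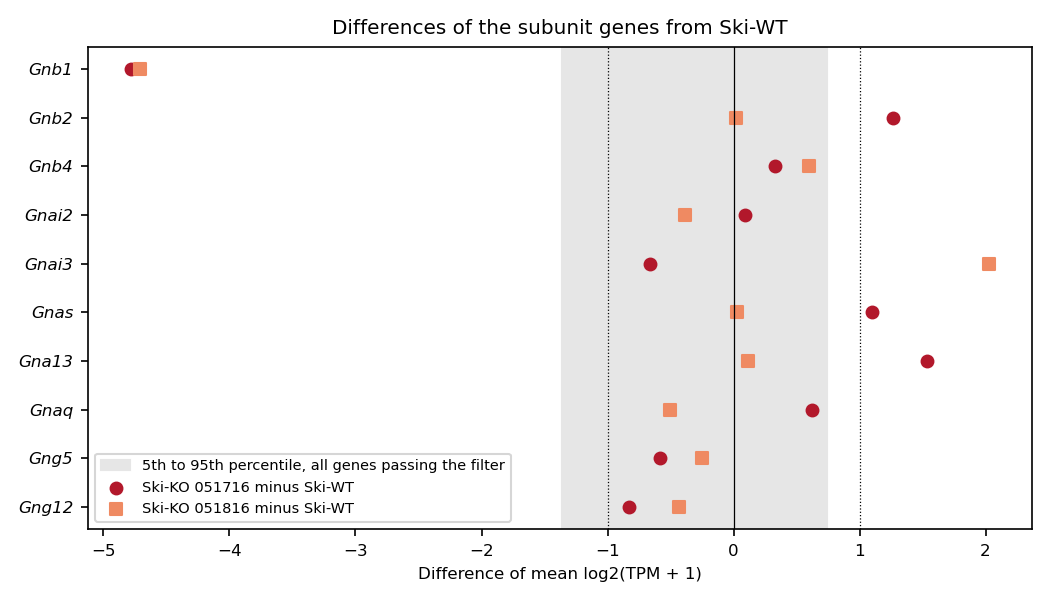
Difference of mean log2(TPM + 1) from Ski-WT on the horizontal axis for each subunit gene, with circles for Ski-KO prefix 051716 and squares for 051816; grey marks the 5th to 95th percentile of the pooled difference over 6240 genes (-1.36 to 0.74) and dotted lines mark a difference of 1 either way. Gnb1 lies at -4.78 and -4.71, and no other member lies past a dotted line on the same side with both symbols.

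The order of levels over the 24 subunit genes in the table differed between the genotypes. In Ski-WT, by mean log2 level, Gnb1 came first (10.44), followed by Gng5 (8.52 ± 2.12), Gnas (4.75 ± 3.31) and Gnai2 (4.56 ± 2.71). The gap of 1.92 between Gnb1 and Gng5 was within the larger SD of the pair, the gap of 3.77 between Gng5 and Gnas exceeded it, and every later gap between neighbours was within it. In Ski-KO, Gng5 came first (8.07 ± 3.36), then Gnb1 (5.68 ± 3.71), Gnas (5.41 ± 3.37) and Gnai2 (4.45 ± 2.75), and every gap between neighbours was within the larger SD.

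A cell had a median of 4 of the 9 other members at 5 TPM or more in each of the 3 prefixes. Among the Ski-KO cells, 17 had Gnb1 under 5 TPM and 29 had it at 5 TPM or more. In that order, Gng5 was at 5 TPM or more in 14 and 26 cells, Gnas in 13 and 23, and Gnai2 in 13 and 19. The counts were 8 and 12 for Gnai3, 8 and 7 for Gna13, and 6 and 8 for Gnb2. For Gng12 they were 6 and 6, for Gnaq 5 and 5, and for Gnb4 2 and 6. Cells with Gnb1 under 5 TPM thus still had transcripts of the more abundant alpha and gamma subunits.

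Across cells, the level of Gnb1 had weak correlations with the other members. Over the 46 Ski-KO cells, with each prefix mean taken off, Pearson r was between -0.21 (Gng12) and 0.13 (Gnb4), and all 9 values lay within the range that held the middle of all genes, -0.27 to 0.23 (5th to 95th percentile). Taken alone, the prefixes gave other values for some members. In 051816, r was -0.44 for Gnaq, below the 5th percentile of that prefix (-0.42), against -0.03 in 051716. For Gng5 it was 0.09 in 051716 and -0.40 in 051816, and for Gnb2 it was -0.26 and 0.27. Over the 48 Ski-WT cells r was 0.36 for Gng12 and -0.27 for Gnai2, outside the range of -0.21 to 0.26 over all genes, and between -0.17 (Gnaq) and 0.24 (Gnb2) for the other 7. The Spearman correlation was 0.34 for Gng12 and -0.23 for Gnai2 in Ski-WT. For Gng12 the sign was opposite in Ski-KO, with r of -0.19 in 051716 and -0.24 in 051816. Over cells with both genes at 5 TPM or more it was not, with r of 0.21 over 6 Ski-KO cells and 0.60 over 20 Ski-WT cells. The number of genes above 0 in a cell had an r with Gnb1 of 0.27 in Ski-WT and -0.05 in Ski-KO. With that number as a covariate the Ski-WT values were 0.32 for Gng12 and -0.34 for Gnai2. The cells of a genotype share their label prefixes, and their depths are unknown, so these correlations in sparse data are a description. Among the other 9 members, the median r over their 36 pairs was 0.07 in Ski-KO and 0.06 in Ski-WT. The highest pair was Gnai3 with Gnb2 in both, at 0.34 and 0.39.

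**Figure D4:**
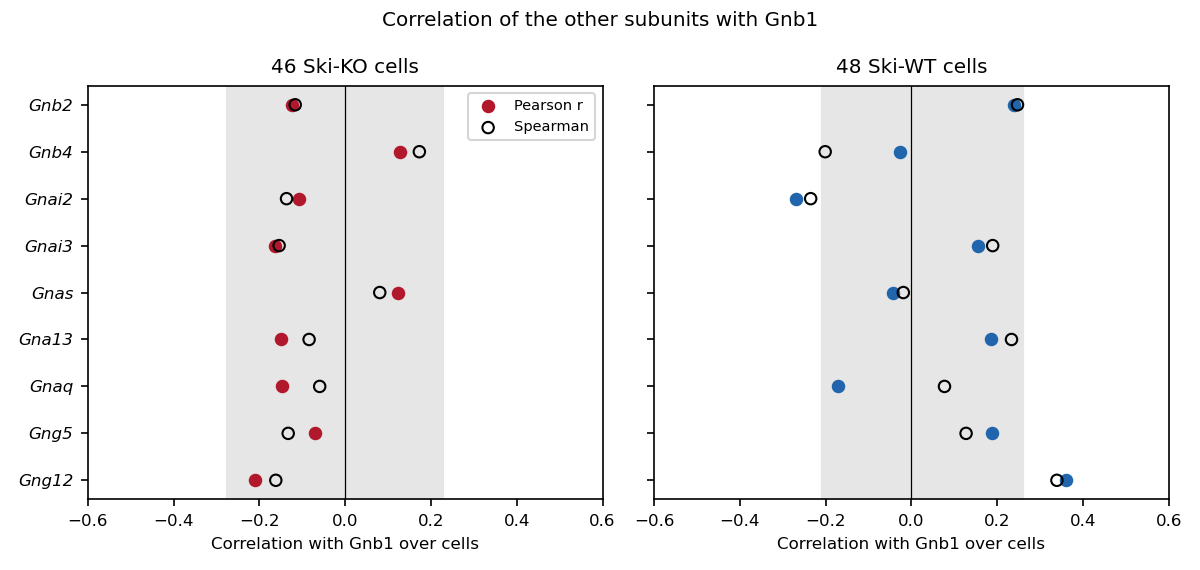
Pearson r (filled) and Spearman correlation (open) of each other member with Gnb1, on the horizontal axis, over 46 Ski-KO cells with prefix means taken off and over 48 Ski-WT cells; grey marks the 5th to 95th percentile of r over all other genes passing the filter. In Ski-KO all 9 values of r lie in the grey range, and in Ski-WT Gng12 (0.36) and Gnai2 (-0.27) lie outside it.

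Outside the family, the genes whose levels ran most like Gnb1 over the 46 Ski-KO cells, of 1125 genes ranked, were Dynlt1f (r 0.60), Klhl9 (0.57), Pam (0.44), Elp2 (0.43) and Dynlt1c (0.43). Over the 48 Ski-WT cells, of 1397 ranked, they were Ssr1 (0.64), Dctn4 (0.51), Cbx3 (0.48), Mfsd11 (0.47) and Akap13 (0.45). The Spearman correlations in the same order were 0.55, 0.51, 0.47, 0.38 and 0.43 in Ski-KO. In Ski-WT they were lower than r for each gene, at 0.37, 0.39, 0.36, 0.34 and 0.32. The 5 genes of each genotype had none in common. With only 5 genes taken of 1125 and 5 of 1397, this sets the genotypes apart in no way. The genes named from Ski-KO had r between -0.03 and 0.24 in Ski-WT, and those named from Ski-WT had r between -0.34 (Cbx3) and 0.24 (Dctn4) in Ski-KO. Dynlt1f and Dynlt1c are near copies, and their reads may be shared.

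The rest of the subunit family was described from a list of 33 genes, of which 24 were rows of the table and 14 passed the filter, 9 of them members. The 5 further genes that passed were the alpha subunits Gnal, an alpha subunit of the Gs class best known from olfactory neurons, and Gna15, an alpha subunit of the Gq class in blood cells, and the gamma subunits Gng2, Gng10 and Gng11. None of the 5 was past the limit, beside 5.56% lower and 0.577% higher over all genes. Gng10 was at 5 TPM or more in 10 of 27, 13 of 19 and 23 of 48 cells, with differences of -0.12 and 2.47, so that 051816 stood above both other prefixes, as for Gnai3. Gna15 had the same form at a lower level, with differences of -0.29 and 1.30. Gng11 was lower in both prefixes (-0.56 and -1.03), and the remaining values were 0.45 and -0.22 for Gng2 and 0.28 and -0.46 for Gnal. In Ski-KO, Gnal and Gng10 had an r with Gnb1 of 0.27 and 0.26, just past the 95th percentile of 0.23. For Gnal r was 0.45 in 051716 and -0.32 in 051816, so its sign turned between the prefixes, and for Gng10 it was 0.10 and 0.48.

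Subunits need help to fold and assemble. The chaperonin CCT folds beta subunits, Pdcl (phosducin-like protein) passes them on to gamma subunits, and Ric8 proteins stabilise alpha subunits. Of 12 such genes, all of which passed the filter, 1 was lower past the limit and 0 were higher, beside 5.56% lower and 0.577% higher over all genes, with a median difference of -0.88 against -0.22 over all genes. The gene was Pdcl, at 5 TPM or more in 5 of 27, 2 of 19 and 16 of 48 cells, with differences of -1.38 and -1.53. Cct5, a CCT subunit and the gene of the list with the highest mean in Ski-WT, had differences of -2.65 in 051716 and 0.01 in 051816. The median of the list was -1.30 in 051716 and -0.07 in 051816, so the lower level of the list lay mostly in 1 Ski-KO prefix. Gnb2l1, a beta-propeller protein related to the beta subunits that is no part of a G protein trimer, was at 5 TPM or more in all 94 cells, with differences of -0.40 and -0.64.

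Among 6 effectors that passed the filter, 0 were lower and 0 higher past the limit, beside 5.56% and 0.577% of all genes. Their median difference was -0.41, against -0.22 over all genes. Plcb2, a phospholipase C that beta-gamma dimers can activate, had the highest mean of them in Ski-WT and differences of 0.61 and -0.20. Arhgef12, a guanine nucleotide exchange factor on which Gna13 acts, came closest to the limit, with -0.97 and -1.58; it was singled out after its values were seen. Arhgef12 was detected at 5 TPM in 3 of 27, 0 of 19 and 13 of 48 cells. Of 11 receptors that passed, 0 were past the limit in either direction, beside the same shares, with a median of -0.01. At these shares a count of 0 in lists this short sets them apart in neither direction. Gpr56, an adhesion receptor that couples to Gna13 and related subunits, was at 5 TPM or more in all 94 cells, with differences of -0.61 and -0.50. Cxcr4, the receptor of Cxcl12, reached 5 TPM in 6, 3 and 12 cells, with differences of 0.34 and -0.30, and was named as background before and not by the naming rule.

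Of 6 receptor kinases and arrestins that passed, 0 were past the limit, beside 5.56% lower and 0.577% higher over all genes. Grk4, a receptor kinase and the highest of them in Ski-WT, had differences of -0.40 and -1.02. Of 5 regulators of alpha subunits (Rgs and Gpsm genes) that passed, 1 was higher past the limit, beside 0.577% of all genes. It was Rgs1, which speeds GTP hydrolysis by alpha subunits of the Gi and Gq classes, with differences of 2.13 and 1.28 and detection in 20 of 27, 12 of 19 and 28 of 48 cells. Rgs2 of the same list, singled out after its values were seen, had differences of 2.0 and 0.32. Rgs18, the highest of that list in Ski-WT, had differences of -0.34 and -0.31. The prenyl transferase subunit Fnta, the 1 gene that passed of 5 enzymes that attach the lipid of gamma subunits or process the tail that carries it, had differences of -0.03 and 0.68. In the marker lists, 1 of 2 myeloid markers that passed was lower past the limit, beside 5.56% of all genes. It was Prtn3, a granule protease, with differences of -1.73 and -1.69. The other 1 had opposite signs in the Ski-KO prefixes. The part of these markers in the level of Gnb1 was not tested.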

How the data were processed

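Single-cell libraries were made from 46 Ski-KO and 48 Ski-WT cells. The deposited unit is log2(TPM + 1), as read from the values, and the submitters' processing notes name Bowtie2, RSEM and mm9, without roles or versions. TPM keeps no depth, and whether counting used strand is not given in the sources used here, so genes and their antisense partners may share reads. No cell was removed and no doublet caller was run. No column lacked a cell.

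The members and gene lists were chosen with earlier results of these data known. Genotype means of log2 values were subtracted, with a pseudocount of 1 TPM as deposited, and a gene passed the filter with values above 0 in 25% or more of the Ski-KO or of the Ski-WT cells. The text names all members, other subunits that passed, genes past the limit and the highest gene of each pathway list, and the 5 genes most correlated with Gnb1 per genotype among those at 5 TPM or more in at least 50% of its cells. A marker gene that this rule takes is not reported here. Coding sequences came from GENCODE transcripts of GRCm38. Alternatives covered pseudocounts, summaries, rescaling, filters and prefixes. The scripts were tested on simulated data and ran under Python 3.11.15 with scipy 1.17.1 for intervals, pandas 2.3.3 and numpy 2.4.6 for tables, and matplotlib 3.10.9 for plots.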

Additional observations from a re-analysis of the deposited data

How the results depend on the processing

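The Gnb1 difference stayed below 0 in all 10 alternatives, from -5.18 to -2.40. The counts of all genes past the limit, 347 lower and 36 higher as reported, moved with the setting. They were 717 and 115 with a pseudocount of 0.1 TPM, 80 and 5 with 10 TPM, 628 and 290 with ratios of mean TPM, 939 and 498 with medians of cells above 0, 220 and 79 with the number of genes as a covariate, and 1116 and 234 with a limit of 0.5. Quantile normalization gave 59 higher. Without prefix 051716 they were 814 and 397, and without prefix 051816 they were 1058 and 245. The other 9 members had 0 lower in each of these settings. The number higher was 0 as reported, 3 with medians of cells above 0 (Gnb4, Gnas and Gnai3), 1 without prefix 051716 (Gnai3) and 3 without prefix 051816 (Gnb2, Gnas and Gna13). The cause was not tested, apart from the use of 1 prefix instead of 2 or of a lower limit. The median over all genes was -0.35 with a pseudocount of 0.1 TPM and -0.07 with the covariate, against -0.22. Of the other members, Gnb2, Gnb4, Gnas and Gna13 kept their sign in 10 of 10 alternatives, Gnai3 and Gng12 in 9, Gnaq and Gng5 in 8 and Gnai2 in 6. Counting cells above 0 in place of 5 TPM gave 97.8% of Ski-KO cells with Gnb1. Of the alternative values of the correlations with Gnb1, 63 moved by no more than the gap in r between the Ski-KO prefixes and 8 by more. Those 8 came mostly from cells with both genes at 5 TPM or more, which numbered from 6 (Gnb4) to 20 (Gng12 in Ski-WT). The gap is a wide measure, up to 0.53 for Gnb2, and was used for Ski-WT values as well. For Gnb2 in Ski-WT, r of 0.24 became 0.77 over such cells and was counted among the 63. No paired analysis was possible because the labels give no replicate that pairs cells across genotypes and no result comes from a test. Unknown depth limits every statement on a cell without a transcript.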
